A study of Mus musculus with 6 samples.

Results

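The general RNA splicing factors were examined in retinas of rd10 mice and of wild-type C57Bl6/J mice (WT). They comprise the 96 genes, of 24062 in the count table, whose symbol starts with Srsf, Hnrnp, Snrp, U2af, Sf3a or Sf3b, or with Rbm and a digit. Each of the 3 RNA-seq libraries per group came from 2 frozen retinas taken at postnatal day 30, and the strain label was C57Bl6/J in both groups. rd10 mice carry a missense change in Pde6b, the rod phosphodiesterase beta subunit, in every cell, and lose their rods progressively. Pooling of the retinas of a sample over animals is not described in the labels, so each p-value rests on the variation among these libraries, which may be partly technical. Libraries are named as in the count table, Rd10-3, Rd10-4 and Rd10-5 in the rd10 group and WT-1, WT-4 and WT-23 in the WT group. Counts assigned to genes came to between 10923556 and 12171088 per rd10 library and between 13573035 and 15818918 per WT library.

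Introns are removed from pre-mRNA by the spliceosome, which assembles from small nuclear ribonucleoprotein particles (snRNPs). The Snrp genes encode the Sm ring shared by most of these particles and proteins of the U1 and U2 particles, the U2AF proteins read the end of the intron, and the SF3A and SF3B complexes hold the U2 particle on the branch point. SR proteins (Srsf) and hnRNP proteins bind exons and introns and often act in opposite directions on the choice of splice sites. The Rbm symbol only records an RNA-binding motif, so that group holds splicing factors, such as Rbm17, beside genes with other roles, such as Rbm7 of a nuclear RNA decay complex and Rbm15 of the m6A methylation complex. Mutations in several core splicing factors outside these symbols cause retinitis pigmentosa in humans, a background to their study in the retina.

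With all 6 libraries and TMM scaling, 8 genes of this set, which is defined by symbol, differed between the genotypes beyond the replicate spread. Of these, 7 were lower in rd10 retinas, among them Rbm7 and Rbm15 with the other roles named above. Of the 89 genes that passed the filter on low counts, 1 rose (Rbm17) and 7 fell (Hnrnpl, Hnrnph3, Hnrnpf, Hnrnpul1, Rbm7, Rbm15 and Rbm33) with edgeR's quasi-likelihood test at a threshold of 0.05 on the adjusted p, and 81 were not called. That is 8.99% of the tested splicing factor genes, against 14.4% of all 13905 genes tested, where 7.12% were called higher and 7.32% lower. Outside the Rbm group, 4 of 55 tested genes were called lower (7.27%) and none higher. DESeq2 called 1 splicing factor gene higher and 10 lower, against 8.94% and 8.59% of all genes. Log2 fold changes of rd10 over WT ran from -0.96 to 0.88 with a median of -0.26, and 75 of the 89 were negative, against a median of -0.04 and 53.8% negative over all genes tested. At an unadjusted p under 0.05, 2 splicing factor genes were higher and 27 lower, against 14.1% and 16.0% of all genes. In 3 genes every rd10 library exceeded every WT library, and in 24 every rd10 library was below every WT library, against 17.1% and 18.6% of all genes. The number of lower calls depended on the libraries and the scaling. It was 22 of 90 tested genes without WT-1 (11.8% of all genes) and 2 of 89 without WT-4 (3.32%, and 6.74% in either direction). With each library's trend along GC content removed it was 19 of 89 (15.1%). With inner neuron scaling, whose factors come from bipolar, amacrine and ganglion cell markers, it was 35 of 89 (21.8%). In the same order, higher calls numbered 1, 1, 3 and 1 (11%, 3.42%, 17.8% and 4.67% of all genes). Without WT-1 and Rd10-4, left out together after their values were seen, 2 splicing factor genes were called higher and 17 lower, against 9.25% and 9.92% of all genes.

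**Figure D1:**
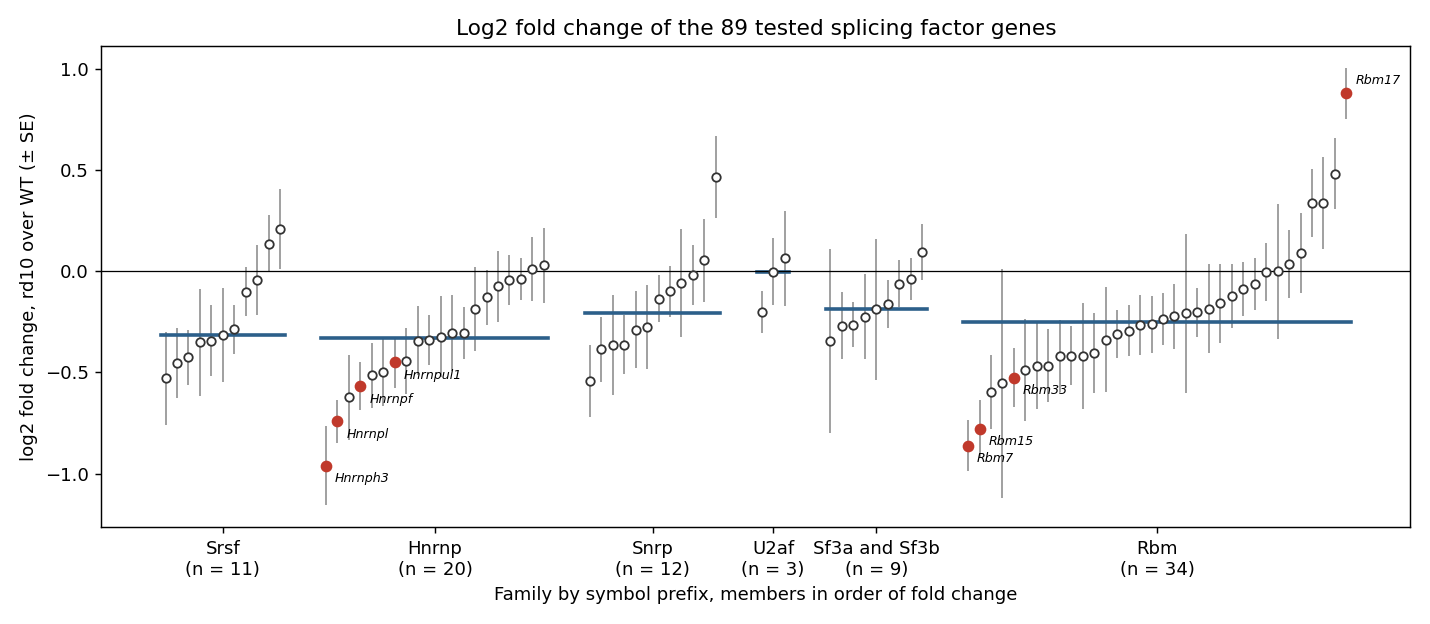
Log2 fold change of rd10 over WT (vertical axis, with its standard error) for the 89 tested splicing factor genes, ordered within 6 families; filled red points are the 8 called genes, open points are not called, and blue lines are family medians. Most points lie below 0, and Rbm17 at 0.88 is the only called gene above it.

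The windows just before a RefSeq transcription start are shown for the gene that rose and for 2 that fell, to set them beside each other. They are the stretches of the 250 bases upstream of the RefSeq start that lie outside annotated exons, from RefSeq on GRCm38.p6, given 5′ to 3′. Capitals mark matches to any of 7 motifs searched on both strands.
Rbm17, chr2:11603263-11603449, minus strand: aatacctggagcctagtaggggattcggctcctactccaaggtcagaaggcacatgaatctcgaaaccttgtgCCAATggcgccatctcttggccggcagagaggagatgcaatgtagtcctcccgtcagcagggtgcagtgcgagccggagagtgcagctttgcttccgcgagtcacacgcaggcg
Rbm7, chr9:48495331-48495441, minus strand: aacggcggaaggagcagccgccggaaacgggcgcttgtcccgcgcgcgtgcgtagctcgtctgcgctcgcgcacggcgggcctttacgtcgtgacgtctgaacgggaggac
Hnrnpf, chr6:117900090-117900323, plus strand: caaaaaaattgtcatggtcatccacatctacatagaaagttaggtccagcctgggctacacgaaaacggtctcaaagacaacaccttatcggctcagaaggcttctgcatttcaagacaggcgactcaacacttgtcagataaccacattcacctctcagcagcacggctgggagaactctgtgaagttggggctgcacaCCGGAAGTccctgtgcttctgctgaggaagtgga
The capitals are a CCAAT box (CCAAT) in the Rbm17 window and an ETS core (CCGGAAGT) in the Hnrnpf window, and the Rbm7 window held none of the 7. CCAAT was also present in the full windows of 3 of the 7 genes that fell, and 3 times in that of Hnrnpul1. The Hnrnpf table entry is 1 of 4 starts listed for that gene. The Rbm17 window lies inside the gene as the authors' deposited table places it, from 11585437 to 11604153 on the minus strand. The RefSeq start used for Rbm17 is thus downstream of the start in that table, and sequence before the latter is not shown. Of the 89 tested genes, 75 had a RefSeq promoter, and motifs were counted in their full 250 upstream bases and in those of 27025 genes. A GC box (GGGCGG) was present in 42 of the 75 (56.0%) and in 32.9% of all promoters, CCAAT in 34 (45.3%) and 34.5%, and CCGGAAGT in 7 (9.33%) and 2.93%. The core read by the photoreceptor factor CRX (TAATCC) was present in 5 of the 75 (6.67%) and in 6.38% of all promoters, and in 0 of the 7 genes that fell. The TEAD core (GGAATG) was present in 3 (4.0%) and 12.6%, the TATA box (TATAAA) in 9 (12%) and 13%, and the NRF1 motif, searched as its palindromic core, in 0 and 0.781%. These are counts of letters in promoters that also differ in base composition, and no test was made on them.

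Rbm17, which encodes a factor that acts at the end of the intron (SPF45 in humans), had 90.3, 82.0 and 99.9 CPM in Rd10-3, Rd10-4 and Rd10-5, against 45.3, 49.0 and 53.8 CPM in WT-1, WT-4 and WT-23 (CPM, TMM-scaled counts relative to library size). Each rd10 library lay above every WT library. The log2 fold change was 0.88 ± 0.13 (SE, n = 3 per group; edgeR adjusted p = 0.00346), a mean of 90.7 ± 9.0 CPM in rd10 and of 49.4 ± 4.2 CPM in WT (SD). Per kilobase of exon it stood at 37.7 in rd10 and 20.5 in WT, the highest level per length among the tested Rbm genes in rd10, whereas Rbm39 was the highest of them in WT at 31.6. Relative to Rbm5, chosen after its values were seen, a tumour suppressor and splicing regulator with a log2 fold change of -0.06 ± 0.13, the ratio of Rbm17 counts within a library was between 1.09 and 1.28 in rd10 and between 0.581 and 0.642 in WT, a measure that no scaling factor enters. In the authors' deposited table Rbm17 lies on chromosome 2 from 11585437 to 11604153 (mm10, minus strand), with 27.7 FPKM in rd10 and 15.1 FPKM in WT.

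Of 20 tested Hnrnp genes, 4 fell, none rose and 16 were not called, with a median log2 fold change of -0.33. Hnrnpl encodes a protein that binds CA repeats and silences or enhances exons. It had 109, 117 and 125 CPM in the rd10 libraries, against 201, 186 and 200 CPM in the WT libraries, with no overlap between the groups. The log2 fold change was -0.74 ± 0.11 (edgeR adjusted p = 0.00342, n = 3 per group). Its paralog Hnrnpll, known for its part in alternative splicing in lymphocytes, was not called (-0.19 ± 0.21, edgeR adjusted p = 0.594).

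Hnrnph3 and Hnrnpf belong to the hnRNP H/F group, which binds runs of G. Hnrnph3 had 47.4, 51.4 and 65.7 CPM in rd10, against 88.1, 97.5 and 135 CPM in WT, a log2 fold change of -0.96 ± 0.20 (edgeR adjusted p = 0.0147, n = 3 per group). Hnrnpf had 153, 160 and 181 CPM in rd10, against 227, 240 and 267 CPM in WT, a log2 fold change of -0.57 ± 0.12 (adjusted p = 0.0164 in the same edgeR fit). In neither gene did the groups overlap. The related Hnrnph2 averaged 182 ± 25 CPM in rd10 and 181 ± 29 CPM in WT (0.01 ± 0.16), and Hnrnph1, at -0.31 ± 0.13, was not called (edgeR adjusted p = 0.154). Within libraries the count ratio of Hnrnph3 to Hnrnph2 was between 0.252 and 0.332 in rd10 and between 0.536 and 0.643 in WT, that of Hnrnpf to Hnrnph2 between 0.812 and 1.04 in rd10 and between 1.27 and 1.5 in WT. These pairs were chosen after their values were seen, and the ratios are a description. Other such ratios overlapped between the groups. That of Hnrnpul1 to Hnrnpul2 was between 0.355 and 0.523 in rd10 and between 0.319 and 0.634 in WT. That of Rbm15 to Rbm15b was between 0.272 and 0.477 in rd10 and between 0.364 and 0.646 in WT, and Srsf4 to Srsf6 overlapped too. Ratios of Hnrnph1 to Hnrnph2, Rbm17 to Rbm10 and, narrowly, Hnrnpl to Hnrnpll did not overlap. Hnrnph3 lost its call when WT-4, Rd10-3 or Rd10-4 was left out, with edgeR adjusted p of 0.0547, 0.0797 and 0.0516, and Hnrnpf without the same libraries (0.0885, 0.101 and 0.0631), with library size alone (0.0945) and against a fold of 1.2 (0.0579). Hnrnpf is uncertain also because 6 pseudogenes in GENCODE match its transcript at 95% identity or more over at least 200 bases, so that the counting could split or drop its reads. Matches at this threshold, to pseudogenes or to other genes, some of them overlapping, exist for 36 of the 89 tested genes. Among the called ones they exist for Hnrnpf and Rbm7. An antisense gene, 4933440N22Rik, covers 13.5% of the Hnrnpf exon bases, and whether counting used strand is not stated.

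Hnrnpul1, a protein of transcription and DNA damage responses related to hnRNP U, had 103, 121 and 106 CPM in rd10, against 164, 153 and 133 CPM in WT. The groups did not overlap, but the call was marginal (-0.45 ± 0.12, edgeR adjusted p = 0.047), and it was lost in 11 of 18 alternatives. Leaving out WT-1, WT-4, Rd10-3, Rd10-4 or Rd10-5 gave adjusted p = 0.0529, 0.187, 0.203, 0.0665 and 0.146. Hnrnpk, a protein that binds runs of C and the most abundant splicing factor gene per length, stood at 81.1 ± 3.4 in rd10 and 83.2 ± 5.4 in WT counts per kilobase on the CPM scale (SD, n = 3). Its log2 fold change was -0.04 ± 0.10 (edgeR adjusted p = 0.841; 0.20 with library size alone). Hnrnpu, a nuclear scaffold protein gene, had 323, 292 and 400 CPM in rd10, against 394, 492 and 677 CPM in WT, so that Rd10-5 lay above WT-1. It was not called, at -0.62 ± 0.21 on the log2 scale (edgeR adjusted p = 0.0879), and -0.37 without WT-23. DESeq2 called it lower (adjusted p = 0.0461), as did edgeR with inner neuron scaling (0.0262) and without WT-1 (0.0112). Hnrnpa1, the long-known antagonist of SR proteins, had 19.3, 16.4 and 22.8 CPM in rd10, against 23.4, 28.8 and 27.4 CPM in WT (-0.44 ± 0.16, edgeR adjusted p = 0.111), and 8 pseudogenes match its transcript, so its level is uncertain. Among Hnrnp genes the level per kilobase of exon ran from 3.77 (Hnrnpll) to 81.1 (Hnrnpk) in rd10 and from 4.28 (Hnrnpll) to 83.2 (Hnrnpk) in WT.

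Of 34 tested Rbm genes, Rbm17 rose, 3 fell and 30 were not called, with a median log2 fold change of -0.25. That is 11.8% called, against 14.4% of all genes tested, where 7.12% were called higher and 7.32% lower. Rbm7 encodes the RNA-binding subunit of the nuclear exosome targeting complex, which hands unstable nuclear transcripts to decay. It had 70.6, 64.1 and 73.1 CPM in rd10, against 111, 129 and 138 CPM in WT, with no overlap. The log2 fold change was -0.86 ± 0.13 (edgeR adjusted p = 0.00362, n = 3 per group), and 2 pseudogenes match its transcript in part. Rbm15, a guide of the m6A methyltransferase, had 10.6, 8.95 and 9.51 CPM in rd10, against 16.9, 16.6 and 16.3 CPM in WT (-0.78 ± 0.14, edgeR adjusted p = 0.0092). The WT libraries lay close together and above every rd10 library, and the call was lost without WT-4 (adjusted p = 0.0527). Rbm33, linked in human cells to m6A demethylation, had 20.3, 22.3 and 25.7 CPM in rd10, against 30.4, 31.4 and 36.7 CPM in WT. Its call was marginal (-0.53 ± 0.15, edgeR adjusted p = 0.0468) and was lost when any library but WT-1 was left out, with edgeR adjusted p from 0.0664 without Rd10-5 to 0.201 without Rd10-3, and in 11 of 18 alternatives in all.

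**Figure D2:**
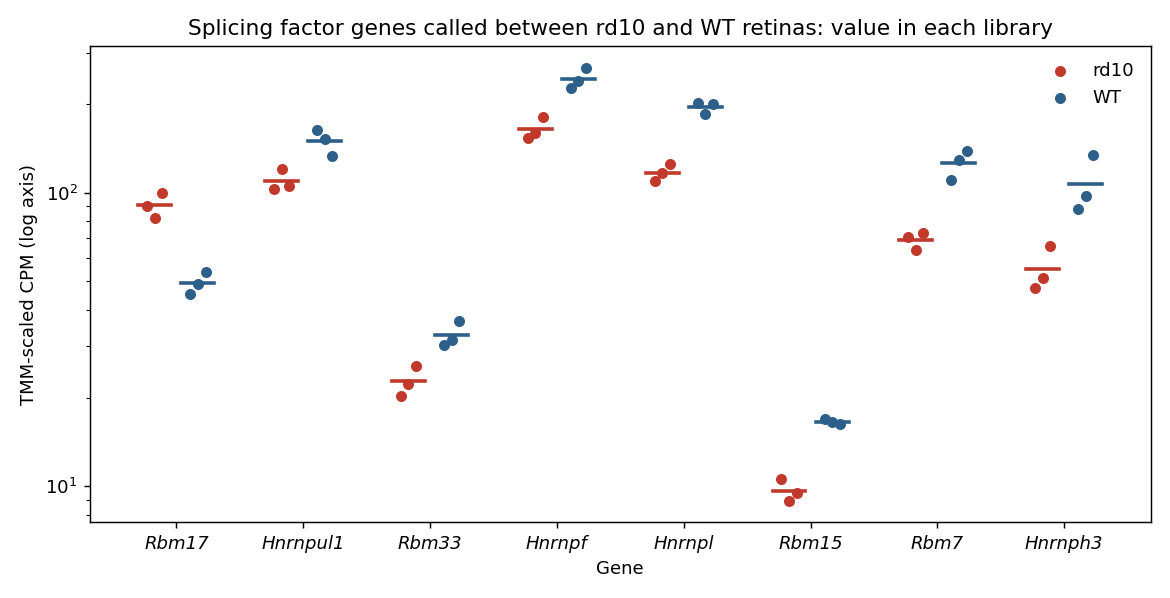
TMM-scaled CPM (logarithmic vertical axis) of the 8 called splicing factor genes in each of 3 rd10 (red) and 3 WT (blue) libraries; points are libraries and bars are means. The groups do not overlap for any of the 8, and only Rbm17 is higher in rd10.

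With TMM factors and all 6 libraries, edgeR called none of the Rbm genes that follow. Rbm3, the cold-inducible RNA-binding protein gene, had 112, 84.9 and 97.6 CPM in rd10, against 61.5, 88.5 and 83.1 CPM in WT, so that Rd10-4 lay among the WT libraries (0.34 ± 0.17, edgeR adjusted p = 0.225; 0.19 without WT-1). Rbm39, a coactivator and splicing factor gene, averaged 159 ± 16 CPM in rd10 and 219 ± 52 CPM in WT (-0.47 ± 0.18, edgeR adjusted p = 0.124). The log2 fold change of Rbm39 was -0.26 without WT-23 and -0.62 without WT-1, where it was called (0.0153). Rbm43, named after its values were seen, did not overlap between the groups (16.6 ± 1.8 CPM in rd10 and 11.9 ± 2.0 CPM in WT) and was not called (edgeR adjusted p = 0.106). Levels of the Rbm genes per kilobase of exon ran from 0.185 (Rbm38) to 37.7 (Rbm17) in rd10 and from 0.275 (Rbm38) to 31.6 (Rbm39) in WT. All 7 genes that did not pass the filter belong to this group. Rbm46 had 6, 7 and 6 counts in rd10 and 8, 17 and 22 counts in WT. It passed the filter in the fits without WT-1 and without both WT-1 and Rd10-4, where edgeR called it lower. Rbm47 had 6, 7 and 3 counts in rd10 and 13, 2 and 12 counts in WT. Rbm44, Rbm3os, Rbm46os and the readthrough Rbm14-rbm4 had at most 6 counts in any library, and Rbm31y had none. Both os symbols are antisense transcripts of the neighbouring gene and not splicing factors.

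None of the 11 tested Srsf genes was called by edgeR with TMM factors and all 6 libraries, and the median log2 fold change was -0.32. At an unadjusted p under 0.05, 4 were lower and none higher, and DESeq2 called none. Inner neuron scaling made edgeR call Srsf3, Srsf4, Srsf5 and Srsf11 lower, against 21.8% of all genes. Srsf3, the smallest SR protein, had 234, 204 and 252 CPM in rd10, against 251, 304 and 391 CPM in WT. Rd10-5 lay at the level of WT-1, and the gene was not called (-0.46 ± 0.17, edgeR adjusted p = 0.12). Its log2 fold change was -0.25 without WT-23 and -0.60 without WT-1, where it was called (0.018). Srsf1, the founding SR protein gene, had 130, 125 and 155 CPM in rd10, against 121, 145 and 256 CPM in WT, where WT-23 stood apart (-0.35 ± 0.26, edgeR adjusted p = 0.41; 0.06 without WT-23). Srsf6 and Srsf12 had the only positive log2 fold changes in the family (0.14 ± 0.14 and 0.21 ± 0.20, edgeR adjusted p = 0.563 and 0.524). Per kilobase of exon the family ran from 3.74 (Srsf12) to 29.1 (Srsf3) in rd10 and from 3.24 (Srsf12) to 39.9 (Srsf3) in WT.

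With all 6 libraries, the core snRNP, U2AF and SF3 genes were not called either, by edgeR with TMM factors or by DESeq2. Inner neuron scaling made edgeR call Sf3a3, Sf3b2, Snrpa1, Snrpc, Snrpf, Snrpg and U2af1 lower, against 21.8% of all genes. It called Snrpf lower without WT-1 (11.8% of all genes), and Snrpb and Snrpf with the GC trend removed (15.1%). Library size alone gave Snrpn as higher (17.8%). Of 12 tested Snrp genes none was called (3 lower and none higher at an unadjusted p under 0.05), with a median log2 fold change of -0.21. Snrpb, which encodes the Sm proteins B and B′, had 69.8, 94.5 and 69.2 CPM in rd10, against 139, 90.4 and 71.3 CPM in WT, and the groups overlapped (-0.36 ± 0.25, edgeR adjusted p = 0.363). Snrpd2, another Sm protein gene, had -0.28 ± 0.21. Without WT-1 the log2 fold changes were -0.06 for Snrpb and -0.07 for Snrpd2. Snrpn, the imprinted paralog of Snrpb that neurons express, had 13.4, 16.7 and 12.9 CPM in rd10, against 12.2, 11.1 and 7.93 CPM in WT, with no overlap, but was not called (0.46 ± 0.20, edgeR adjusted p = 0.168). The count ratio of Snrpn to Snrpb, a pair chosen after its values were seen, was between 0.177 and 0.191 in rd10 and between 0.0879 and 0.122 in WT. Snrpn overlaps Snurf on the same strand, so its count is uncertain.

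U2af2, which reads the pyrimidine tract, had 140, 171 and 138 CPM in rd10, against 184, 140 and 126 CPM in WT, and U2af1, which reads the final AG, had 48.3, 46.5 and 50.5 CPM in rd10, against 55.7, 55.8 and 55.7 CPM in WT. The U2af2 libraries of both groups were interleaved (0.00 ± 0.17), while U2af1 lay lower in each rd10 library without passing (-0.20 ± 0.11, edgeR adjusted p = 0.238). Among the 9 genes of SF3A and SF3B none was called (1 lower and none higher at an unadjusted p under 0.05), with a median log2 fold change of -0.19. Sf3b1, the scaffold of the branch point complex, had 259, 221 and 287 CPM in rd10, against 245, 320 and 359 CPM in WT (-0.27 ± 0.17, edgeR adjusted p = 0.314; -0.13 without WT-23). Sf3b2, which binds near the branch point, had -0.16 ± 0.12 (edgeR adjusted p = 0.402), 0.08 with library size alone and -0.09 without WT-1. With inner neuron scaling Sf3b2 had -0.42 and was called (edgeR adjusted p = 0.0342). It was the highest of these genes per kilobase of exon, at 54.0 in rd10 and 60.4 in WT.

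Splicing genes outside these symbols had lower calls and no higher ones in edgeR with TMM factors and all 6 libraries. In 6 lists with 127 tested genes, 12 were called lower (9.45%) and none higher. Among all genes the lower calls made up 7.32% and the higher ones 7.12%. Removing the GC trend gave 5 higher and 32 lower calls in these lists, against 17.8% and 15.1% of all genes. The median over these 127 genes was -0.23 on the log2 scale with TMM factors. Among 51 regulators of alternative splicing 7 fell, among them Mbnl1, the muscleblind gene (-1.13 ± 0.21, edgeR adjusted p = 0.00972), the Musashi gene Msi2 (-0.60 ± 0.12, adjusted p = 0.012) and Raly, an hnRNP relative (-0.61 ± 0.14, adjusted p = 0.0248). Mbnl1 had 46.7, 40.0 and 59.95 CPM in rd10, against 86.8, 99.3 and 135 CPM in WT. Among 34 proteins of the U particles and the tri-snRNP, Snrnp27 (-0.67 ± 0.14) and Lsm2 (-0.71 ± 0.16) fell. Of 17 Prp19 complex and catalytic step genes the helicase gene Aqr fell (-0.52 ± 0.12), of 8 SR protein kinase genes Dyrk1a fell (-0.53 ± 0.14), and of 4 exon junction complex genes its core Eif4a3 fell (-0.56 ± 0.14; edgeR adjusted p = 0.0221, 0.0413 and 0.0313). Of 18 alternatives, Mbnl1 lost its call in 1 (0.0571 without Rd10-3), Dyrk1a in 9, Eif4a3 in 7, Lsm2 and Aqr in 6 each, Raly in 5, and Snrnp27 and Msi2 in 4 each. Without WT-4 the edgeR adjusted p was 0.158 for Dyrk1a, 0.113 for Eif4a3, 0.0824 for Lsm2, 0.139 for Aqr, 0.0669 for Raly, 0.0548 for Snrnp27 and 0.0836 for Msi2. None of 13 genes for Sm ring assembly was called by edgeR (3 lower and none higher at an unadjusted p under 0.05, and 0 by DESeq2), and Strap, the most abundant, had -0.04 ± 0.15.

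Markers of several cell types of the retina also differed between the groups. All 16 rod markers fell (median log2 fold change -2.09), and their share of all counts was between 2.52% and 3.60% in rd10 libraries and between 10.4% and 11.9% in WT libraries. All 12 microglial and all 10 gliosis markers rose (medians 2.01 and 2.51), as did 7 of 10 Müller cell markers (0.71), 5 of 10 cone markers (0.43), 4 of 12 bipolar and 1 of 12 ganglion cell markers, and none of 12 amacrine markers was called by edgeR (2 higher at an unadjusted p under 0.05, and 1 by DESeq2). Over all genes tested, 7.12% were called higher and 7.32% lower, so the share of ganglion cell markers called (8.33%) is near the share of all genes. Of 7 tested pigment epithelium markers 3 fell (median -0.36). The part of these shifts in the values of the splicing factor genes was not tested, and in whole retina fewer cells of a type and less RNA per cell cannot be told apart. All counts of the splicing factor genes together made up 0.827%, 0.766% and 0.845% of the rd10 libraries (mean 0.813 ± 0.042%, SD) and 0.731%, 0.822% and 0.926% of the WT libraries (0.826 ± 0.097%), so the groups overlapped. The difference of -0.0137 percentage points became 0.036 without WT-23 and 0.00973 without Rd10-4. Among counts outside the rod markers the share was 0.838 ± 0.045% in rd10 and 0.930 ± 0.102% in WT. The groups overlapped here too, with 0.848%, 0.789% and 0.877% in the rd10 libraries and 0.830%, 0.928% and 1.033% in the WT libraries.

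The median log2 fold change over the tested splicing factor genes depended on the scaling, which moves all genes about alike. It was -0.26 against -0.04 with TMM factors, -0.03 against 0.20 with library size alone, and -0.53 against -0.30 with inner neuron scaling. Without WT-23 it was -0.175 against -0.0175. With inner neuron scaling 1 gene was called higher and 35 lower (4.67% and 21.8% of all genes), with library size alone 3 and 4 (17.8% and 4.11%). Rbm17, Hnrnpl and Rbm7 kept their calls in each of the 18 alternatives, with log2 fold changes between 0.615 and 1.12, between -0.999 and -0.503, and between -1.13 and -0.625.

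Libraries of a group differed along GC content, and this touched the splicing factor genes. Per 10 percentage points of transcript GC content, log2 CPM changed by -0.05, 0.33 and -0.12 in Rd10-3, Rd10-4 and Rd10-5 and by 0.36, -0.11 and -0.41 in WT-1, WT-4 and WT-23, relative to each gene's mean. Across the 89 genes, whose GC content ran from 39.7% to 61.5%, it correlated with the log2 ratio of Rd10-4 to Rd10-5 (Pearson r = 0.72) and of WT-1 to WT-23 (0.71). These correlations are across genes of the same libraries and are a description. Rbm42, at 61.5% GC and named after its values were seen, had 31.1, 55.4 and 31.6 CPM in rd10 and 73.2, 38.9 and 24.5 CPM in WT. The median SD of log2 CPM over the 89 genes was 0.154 in rd10 and 0.238 in WT, against 0.174 in rd10 and 0.242 in WT over all genes tested, and WT-23 was the highest of the 6 libraries for 40 of them. With the GC trend removed from each library, 3 were called higher and 19 lower, against 17.8% and 15.1% of all genes, and all 8 calls were among them. The 14 gained were Rbm3 and Rbm43, which rose, and Hnrnpa1, Hnrnpm, Hnrnpr, Hnrnpu, Rbm10, Rbm15b, Rbm26, Rbm27, Rbm39, Snrpb, Snrpf and Srsf3, which fell. Rbm3 then had a log2 fold change of 0.44 (adjusted p = 0.0107), Hnrnpu one of -0.46 (0.00476), Snrpb one of -0.37 (0.0112) and Srsf3 one of -0.33 (0.0105) in that edgeR fit.

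**Figure D3:**
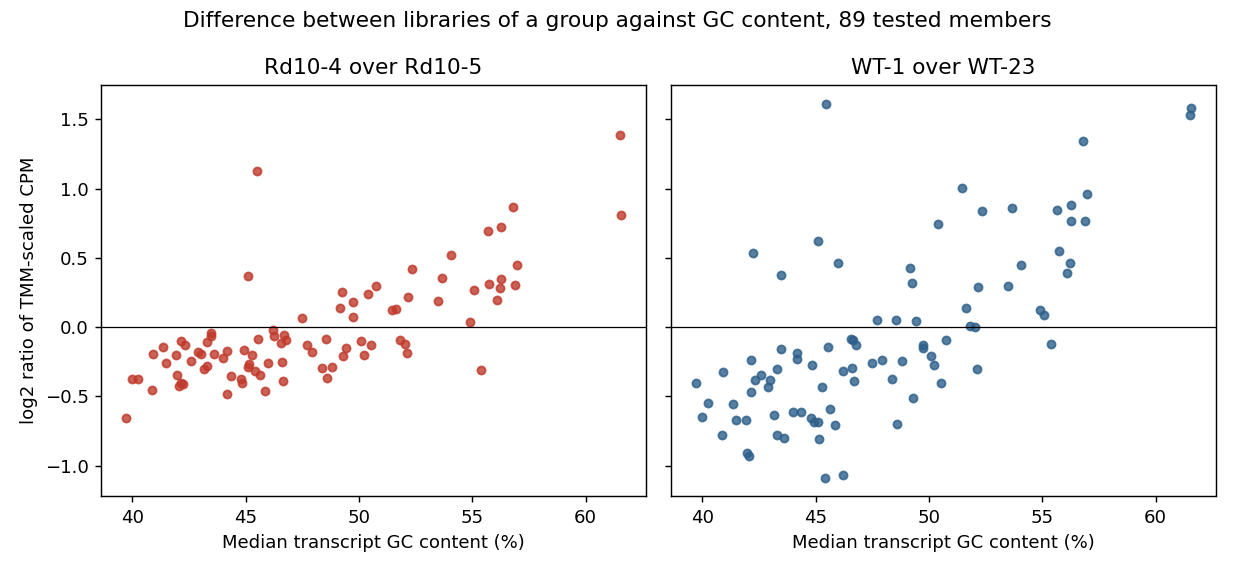
Log2 ratio of TMM-scaled CPM (vertical axis) between Rd10-4 and Rd10-5 (left) and between WT-1 and WT-23 (right) against median transcript GC content in percent, for the 89 tested splicing factor genes (points). Both ratios rise with GC content, with Pearson r of 0.72 and 0.71.

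**Figure D4:**
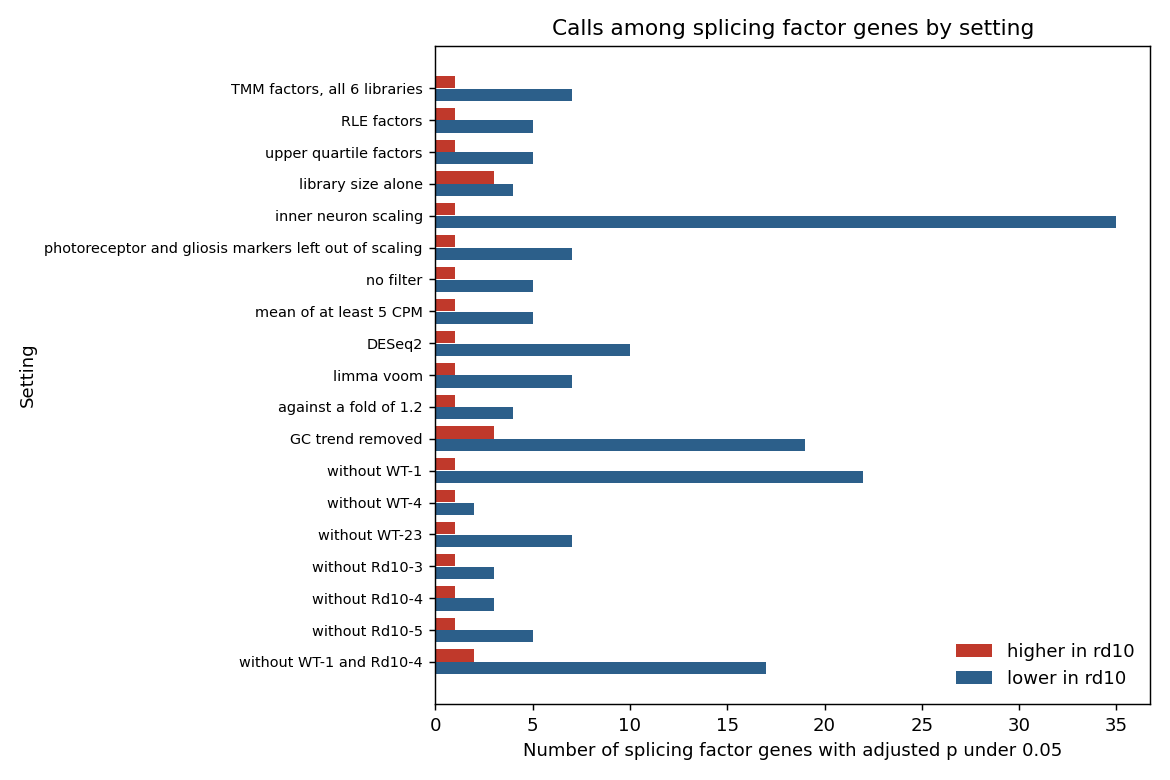
Number of splicing factor genes called higher (red) and lower (blue) in rd10 under each setting (rows). The lower calls run from 2 without WT-4 to 35 with inner neuron scaling, against 7 with TMM factors and all 6 libraries, and the higher calls from 1 to 3.

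In annotation, many of these genes carry transcripts that do not make full-length protein, a known feature of SR and hnRNP genes, which limit their own output by including exons with early stop codons. GENCODE M21 lists a transcript marked for nonsense-mediated decay for 39 of the 89 tested genes (43.8%), against 27.8% of 12899 tested protein-coding genes. By family these were 9 of 11 Srsf, 10 of 20 Hnrnp, 4 of 12 Snrp, 3 of 3 U2af, 1 of 9 SF3 and 12 of 34 Rbm genes. A transcript with a retained intron is listed for 63 (70.8%), against 57.8%. The tested splicing factor genes were also more abundant, with a median over genes of 55.3 CPM against 26 CPM, and the part of abundance in these shares was not tested. Gene counts do not separate these transcripts from coding ones.

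The authors' deposited table, in which no p is above 0.04995, lists 26 of the 96 genes, 24 lower and 2 higher in rd10 (Rbm17 and Rbm43), with deposited log2 fold changes from -0.96 to 0.88. All 8 genes called here are among them, but that table comes from the same series, so this is not independent support. Its p-values are not labelled as adjusted, and its smallest absolute log2 fold change is 0.2641. Of the genes tested here, 14.2% are listed as lower and 10.4% as higher in that table. The same authors' deposited table places Hnrnpl on chromosome 7 from 28808541 to 28822266, Hnrnph3 on chromosome 10 from 63014664 to 63024217, Hnrnpf on chromosome 6 from 117900324 to 117925622 and Hnrnpul1 on chromosome 7 from 25721498 to 25754730. Rbm7 is placed in the authors' deposited table on chromosome 9 from 48488709 to 48495330, Rbm15 on chromosome 3 from 107325421 to 107333673 and Rbm33 on chromosome 5 from 28317121 to 28419239 (mm10), and all 8 are protein coding genes there.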

How the data were processed

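The submitters' processing notes name TopHat2 2.1.0, HTSeq, edgeR and mm10, with no role or order; the annotation used is unstated in the sources here. Libraries were strand-specific per the labels' protocols; whether counting used strand is not given. The authors deposited raw counts per gene, as whole numbers. Their second table gives, per the file headers, a group FPKM, a log2 fold change and a p-value for each listed gene, and is quoted only by name. Columns were assigned to groups by name. The members, lists, rule for named genes and tests were chosen with earlier results of these data known.

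Genes were filtered with filterByExpr (13905 of 24062 left) and compared between genotypes, with no other term, by the robust quasi-likelihood test of edgeR 4.0.16 under R 4.3.3, with TMM scaling and p adjusted by Benjamini-Hochberg over all genes tested at a threshold of 0.05. The fit was tested on simulated data. The permutation test planned for the members' share of counts is not reported, since a score over chosen members gets no p. Lengths, GC content and copies came from GENCODE M21 (GRCm38, the assembly of mm10), which matched 89 of 89 tested members by symbol; levels per length divide CPM by the kilobases of all annotated exons. Libraries of a group differed beyond sampling noise (chi-square per degree of freedom from 7.36 to 57.8), so none was treated as a copy. Named genes were the called members, the 2 most abundant per family, Rbm3, Srsf3, Hnrnpa1, Snrpn and Sf3b1, and of each other list up to 3 called genes or, with none called, the most abundant.

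Alternatives were DESeq2 1.42.0, limma voom (limma 3.58.1), other scalings and filters, a fold of 1.2, GC correction and leaving out libraries.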

Additional observations from a re-analysis of the deposited data

How the results depend on the processing

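The direction of all 8 called splicing factor genes was kept in the 18 alternatives run for each, and Rbm17, Hnrnpl and Rbm7 kept their calls. Of 558 alternative values of the 31 named genes, 440 had the direction and side of the threshold of the reported value, 73 lost a call, 21 gained a call and 24 changed sign, none of the last for a called member. The causes were not tested. Fits that leave out libraries also have fewer degrees of freedom, and the part of this in the changes was not tested either.

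Members called higher and lower were 3 and 4 with library size alone, 3 and 19 with the GC trend removed, and 2 and 17 without WT-1 and Rd10-4 (chosen after seeing the data); the number lower was 35 with inner neuron scaling and 4 against a fold of 1.2. Leaving out each library gave 1 higher throughout and from 2 (without WT-4) to 22 (without WT-1) lower, and 3 lower without Rd10-3 or Rd10-4. Among all genes, 649 were called higher and 3037 lower with inner neuron scaling, 2471 and 572 with library size alone, 2475 and 2102 with the GC trend removed, 1301 and 1395 without WT-1 and Rd10-4, and 623 lower against a fold of 1.2; leaving out each library gave from 474 to 1553 higher and from 411 to 1661 lower. The median log2 fold change of tested members was -0.526 with inner neuron scaling, -0.17 with upper quartile factors and -0.0254 if scaled by library size alone, and ran from -0.267 to -0.175 when leaving out each library. The difference in the members' share of counts, -0.0137 percentage points, ran from -0.0614 to 0.036 when leaving out each library, with 0.00973 without Rd10-4; scaling and filters do not enter it.

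Sign changes concerned genes that were not called in either setting. U2af2, at -0.00, had 0.0146 with RLE factors and with DESeq2, 0.00931 with limma voom, 0.0187 when genes under a mean of 5 CPM were dropped, 0.0275 with no filter, 0.239 with library size alone and 0.0911 with upper quartile factors. Without WT-1, Rd10-3, Rd10-5 or both WT-1 and Rd10-4 it had 0.168, 0.0395, 0.052 and 0.0615. Hnrnpk had 0.0568 with upper quartile factors, 0.201 under library size scaling, 0.0736 with the GC trend removed, and 0.00894 and 0.00525 without WT-4 or WT-23. Strap had 0.052, 0.195 and 0.0648 under the same 3 settings, and 0.104 and 0.0511 without WT-23 or Rd10-4. Over the 6 fits that each leave out 1 library, the lowest values were -0.561 for Srsf1, -0.0926 for Hnrnpk, -0.111 for U2af2 and -0.151 for Strap. Srsf1 had 0.0564 without WT-23, and U2af1 and Sf3b2 had 0.0371 and 0.078 with library size alone.

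No paired analysis was possible because the numbers in the column names (1, 4 and 23 for WT, 3, 4 and 5 for rd10) do not map to the replicates 1 to 3 of the titles.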
